A study of Mus musculus with 2 samples.

Results

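Cxcl1, Cxcl2, Cxcl3 and Cxcl5 encode mouse chemokines that bind the receptor CXCR2. They were taken by symbol from the gene lists of both deposited count matrices, and they are 4 of the 32285 genes listed there. Each symbol occurred on a single row. The series was set up around CCL2 made by fibro-adipogenic progenitors (FAPs), the mesenchymal cells that lie between muscle fibres. Mononuclear cells of quadriceps muscle came from wild-type C57BL/6J mice injected in that muscle with barium chloride (BaCl2, 100 µl of a 1.2% w/v solution), which destroys muscle fibres. The groups were 2 h and 9 h after injection, with 1 droplet library each, and both groups carried the same genotype and the same injection. Cells had been frozen and were thawed for the 10x 3′ v3.1 protocol, and the sources used here give neither the age of the mice nor the number pooled. No uninjured muscle was analysed here, so every level below is one after injury.

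CXCR2 ligands carry a Glu-Leu-Arg motif before their first cysteines, and they draw neutrophils out of the blood through CXCR2 on the neutrophil surface. Stromal and endothelial cells, macrophages and neutrophils themselves can make them when interleukin-1, tumour necrosis factor or microbial products activate the transcription factor NF-kB. Their messenger RNAs are short-lived in resting cells because AU-rich elements in the 3′ untranslated region recruit decay proteins such as tristetraprolin, the product of Zfp36.

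The 4 genes lie on the plus strand of chromosome 5 within 147 kb (mm10, GENCODE M21). Cxcl5 (ENSMUSG00000029371) spans 90759360 to 90761624, Cxcl3 (ENSMUSG00000029379) 90786103 to 90789600, Cxcl1 (ENSMUSG00000029380) 90891241 to 90893115 and Cxcl2 (ENSMUSG00000058427) 90903871 to 90905938. Each is protein-coding with 4 exons in its first transcript. Ppbp, Pf4 and Cxcl15, other chemokine genes, lie between Cxcl5 and Cxcl1. Cxcl2 and Cxcl3 transcripts shared 61 words of 50 bases, and the other 5 pairs shared none, so reads of Cxcl2 and Cxcl3 could in part have been hard to assign. The sources used here do not say how such reads were counted.

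The promoter sequences of Cxcl1, Cxcl2 and Cxcl3 are shown because the 3 genes share an NF-kB-type word close to the start site. They are from RefSeq (GRCm38.p6), plus strand, 5′ to 3′, and begin 110 bases before the RefSeq start. The promoter of Cxcl5 was not analysed here. Capitals mark GGGAATTTCC and ATAAAA.
Cxcl1, chr5:90891135-90891225: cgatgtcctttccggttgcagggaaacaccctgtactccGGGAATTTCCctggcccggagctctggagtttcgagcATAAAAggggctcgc
Cxcl2, chr5:90903789-90903870: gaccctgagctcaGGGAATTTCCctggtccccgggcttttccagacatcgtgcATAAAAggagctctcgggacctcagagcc
Cxcl3, chr5:90785991-90786081: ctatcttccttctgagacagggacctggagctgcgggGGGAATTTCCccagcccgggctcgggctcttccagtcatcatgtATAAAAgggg

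Searched on both strands of the 250 bases before the start, the 10-base NF-kB pattern, GGGA and TTCC with 2 free bases between them, was found in all 3 promoters and in 1.21% of the 32851 promoters in the table. It matched on both strands at overlapping positions. The word GGGAATTTCC, chosen after the sequences had been seen, was held by 28 promoters in all (0.0852%). It began 71 bases before the RefSeq start of Cxcl1, 97 before that of Cxcl2 and 73 before that of Cxcl3. The Cxcl2 sequence shown ends 29 bases before its RefSeq start, because the GENCODE start comes next. Measured from the GENCODE start, the word of Cxcl2 is therefore nearer than 97 bases. ATAAAA, also chosen after the sequences had been seen, was in all 3 and in 17.0% of promoters, and TATAAA was in that of Cxcl3 and in 12.4% of promoters. TTGCNNAA, the pattern of C/EBP factors, was in none of the 3 and in 9.56% of promoters. TGANTCA, the pattern of AP-1, was in none of the 3 and in 6.75% of promoters.

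The 3′ untranslated regions of all 4 genes held the pentamer ATTTA, the core of AU-rich elements. It occurred 7 times in Cxcl1 (592 bases), 11 times in Cxcl2 (734 bases), 5 times in Cxcl3 (645 bases) and 5 times in Cxcl5 (1111 bases). Of 15399 genes with at least 200 bases of 3′ untranslated region, 0.318% were as dense in ATTTA as Cxcl1, 0.117% as Cxcl2, 1.77% as Cxcl3 and 8.99% as Cxcl5. The richest 30-base stretch of each (GENCODE M21, first transcript) is shown with ATTTA in capitals.
Cxcl1: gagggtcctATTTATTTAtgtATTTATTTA
Cxcl2: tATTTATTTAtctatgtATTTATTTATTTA
Cxcl3: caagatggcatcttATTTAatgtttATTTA
Cxcl5: agcttcctgctcatctcacaagtgtATTTA
A match is a description of these letters and not evidence of a working site.

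The libraries kept 4900 cells at 2 h and 8147 at 9 h, with medians of 4519 and 2327 unique molecules (UMIs) per cell and 27598413 and 35127600 UMIs in all. The libraries shared 20 barcodes, 12 of them among kept cells. Cells were clustered without the 4 ligand genes, and 20 clusters fell into 12 classes named from marker lists, each with 9 or more of its markers detected. Levels are counts per 1e+06 UMIs of the cells of a class (CPM), and ratios are the 9 h level over the 2 h level. A 3′ library gives 1 UMI per captured molecule whatever its length, so levels of different ligands are set side by side without a length correction. All intervals are 95% intervals for counting error only. They treat UMIs as independent and hold no spread between animals, and with 1 library per time no difference could be tested.

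Together the 4 ligands made up 0.516% of all UMIs at 2 h and 3.02% at 9 h. Cxcl2 was the most abundant at both times, with 77.5% of the ligand UMIs at 2 h and 57.6% at 9 h. Cxcl5 went from 0.611% of the ligand UMIs to 22.2%. Over all kept cells Cxcl1 was at 875 CPM at 2 h and 3170.5 at 9 h, Cxcl2 at 4001 and 17405, Cxcl3 at 255 and 2957, and Cxcl5 at 31.5 and 6702. The ratios were 3.62 for Cxcl1, 4.35 for Cxcl2, 11.6 for Cxcl3 and 213 for Cxcl5. These totals also move with the mixture of cells, since the kept cells were 33.3% neutrophil-like and 40.6% FAP-like at 2 h, and 52.6% and 28.9% at 9 h.

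The ligands split into a pair held by FAP-like cells and a pair held mostly by neutrophil-like cells, less clearly so for Cxcl3 at 9 h. Shares of UMIs also follow the size of a class. FAP-like cells held 15984410 of the 27598413 UMIs at 2 h and 19498041 of the 35127600 at 9 h. Neutrophil-like cells held 3508642 and 8238331. FAP-like cells held 92.4% of Cxcl1 UMIs at 2 h (interval 92.0 to 92.7%) and 93.3% at 9 h (93.2 to 93.5%), and 94.7% (93.0 to 96.1%) and 96.2% (96.2 to 96.3%) of Cxcl5 UMIs. Neutrophil-like cells held 73.9% of Cxcl2 UMIs at 2 h and 74.5% at 9 h. Of Cxcl3 UMIs they held 82.5% at 2 h (interval 81.6 to 83.4%) and 58.5% at 9 h (58.2 to 58.8%). The rest of Cxcl3 lay mostly in FAP-like cells at 9 h, with 29.4% of its UMIs (29.1 to 29.7%) against 5.17% at 2 h. Monocyte-like cells held 4.94% of Cxcl2 UMIs at 2 h and 7.05% at 9 h, and resident macrophage-like cells 11.3% and 3.97%.

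**Figure D1:**
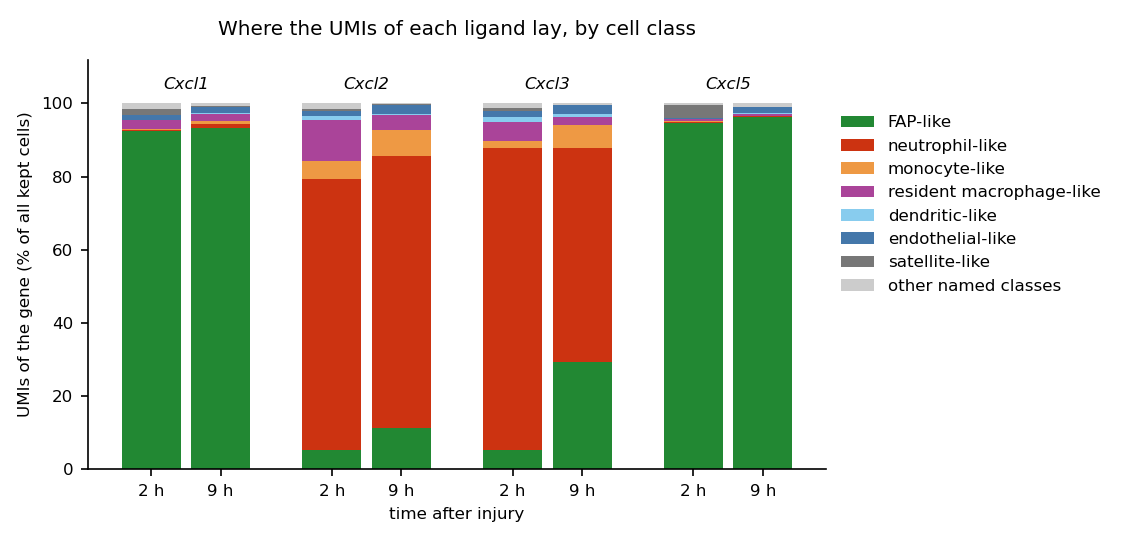
Share of each ligand's UMIs (vertical axis, % of the UMIs in all kept cells) held by each cell class at 2 h and 9 h after BaCl2, 1 library per bar. FAP-like cells hold over 90% of Cxcl1 and Cxcl5 at both times, and their part of Cxcl3 goes from 5.17% to 29.4%.

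In FAP-like cells the most abundant ligand was Cxcl1 at 2 h and Cxcl5 at 9 h. The class lay mostly in clusters 0 and 1 at 2 h and in clusters 4, 17 and 19 at 9 h. Cxcl1, a broad early ligand, was at 1396 CPM at 2 h (1378 to 1414) in 1988 cells and at 5331 at 9 h (5298 to 5363) in 2354 cells, for a ratio of 3.82 (3.76 to 3.87). Cxcl5, known as a ligand of epithelial and stromal cells, was at 51.6 at 2 h (interval 48.1 to 55.2) and at 11622 at 9 h (11574 to 11670), for a ratio of 225 (211 to 242). Cxcl5 was the 2733rd gene by level in FAP-like cells at 2 h and the 4th at 9 h, and Cxcl1 went from the 106th to the 14th. Of the ligand UMIs of FAP-like cells, Cxcl1 was 76.0% and Cxcl5 2.81% at 2 h, and Cxcl1 was 24.2% and Cxcl5 52.8% at 9 h. Together the ligands were 0.184% of FAP UMIs at 2 h and 2.20% at 9 h.

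Cxcl2 and Cxcl3 were also present in FAP-like cells, at lower levels than in neutrophil-like cells. Cxcl2 was at 366 CPM at 2 h and 3513 at 9 h, for a ratio of 9.58 (9.33 to 9.85). Cxcl3 was at 22.7 at 2 h and 1566 at 9 h, for a ratio of 68.9 (62.2 to 76.7). Neutrophil markers were present in the FAP-like cells too: all 12 had a UMI, and their summed level was 1472 CPM at 2 h and 2113 at 9 h, which is 1.02% and 1.92% of that in neutrophil-like cells. Scaled by S100a8, an abundant neutrophil transcript, neutrophil RNA would bring 217 of the 366 CPM of Cxcl2 and 15.4 of the 22.7 of Cxcl3 at 2 h, and 1007 of the 3513 and 134 of the 1566 at 9 h. FAP-like cells with no UMI of S100a8 or S100a9 (817 at 2 h and 978 at 9 h) had Cxcl2 at 90.8 and 2532 CPM and Cxcl3 at 12.1 and 1393. The ratios in those cells were 27.9 for Cxcl2 and 115 for Cxcl3, so both genes were as far or further apart without the marked cells. Splits by marker UMIs, here and in the other classes, were added after the data had been seen. In the same cells Cxcl1 was at 1274 and 5437 CPM, for a ratio of 4.27, and Cxcl5 at 21.4 and 11895, for a ratio of 555.

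A gene was taken as measured in a class where the libraries together held 100 UMIs of it or more. Of the 10455 genes measured in FAP-like cells, 15.8% were at least 2-fold higher at 9 h and 20.5% at least 2-fold lower, and the 4 ligands were all among the higher. On log2 ratios with 10 CPM added to each level, Cxcl5 ranked 1st at 7.56, Cxcl3 2nd at 5.59, Cxcl2 10th at 3.23 and Cxcl1 84th at 1.93. In neutrophil-like cells, where 4927 genes were measured, 9.36% were at least 2-fold higher and 10.1% at least 2-fold lower. The higher genes were 43.5% of those 2-fold apart in FAP-like cells and 48.1% in neutrophil-like cells. After TMM scaling, which adds 0.14 to every log2 ratio in both classes, they were 51.3% and 59.6%. Cxcl3 ranked 35th there at 2.15 and Cxcl2 146th at 1.25. Cxcl1 ranked 47th and Cxcl5 8th, but Cxcl5 passed the minimum of 100 UMIs only through its 710 UMIs at 9 h.

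**Figure D2:**
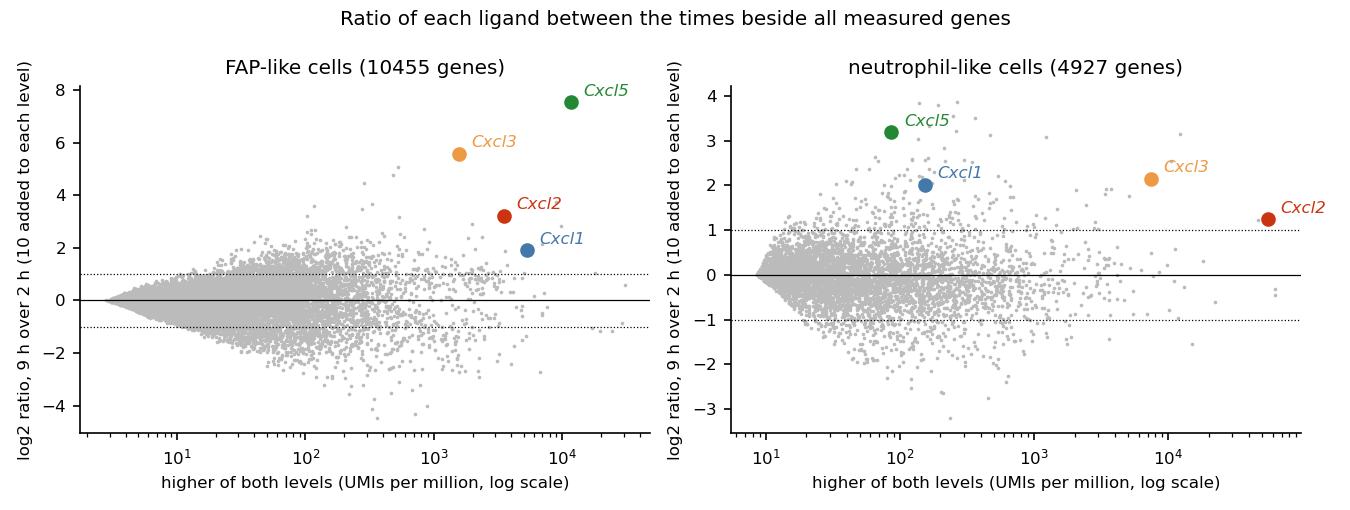
Log2 ratio of 9 h over 2 h (vertical axis, 10 CPM added to each level) against the higher of the 2 levels (horizontal axis, CPM, log scale) for each measured gene (grey points) and the 4 ligands (coloured points), with dotted lines at 2-fold. In FAP-like cells Cxcl5 at 7.56 and Cxcl3 at 5.59 lie above every other gene, and in neutrophil-like cells Cxcl2 lies at 55314 CPM with a log2 ratio of 1.25.

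Neutrophil-like cells carried Cxcl2 at levels above those of nearly every other gene. The class lay mostly in cluster 8 at 2 h and in clusters 13, 14 and 15 at 9 h. Cxcl2, a ligand made by myeloid cells, was at 23265 CPM at 2 h (23106 to 23426) in 1632 cells and at 55314 at 9 h (55154 to 55475) in 4282 cells, for a ratio of 2.38 (2.36 to 2.40). It was the 3rd gene by level at 2 h and the 1st at 9 h. Cxcl3, its close relative, was at 1652 at 2 h (interval 1610 to 1696) and 7378 at 9 h (7320 to 7437), for a ratio of 4.46 (4.35 to 4.59). The median cell held 39 UMIs of Cxcl2 at 2 h and 84 at 9 h, and 0 and 9 of Cxcl3. Ligands were 2.49% of neutrophil UMIs at 2 h and 6.29% at 9 h, with Cxcl2 at 93.3% and 87.9% of them.

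Cxcl1 and Cxcl5 were low in neutrophil-like cells. Cxcl1 was at 30.2 CPM at 2 h (106 UMIs) and 153 at 9 h (1260 UMIs). Cxcl5 had 2 UMIs at 2 h and was at 86.2 CPM at 9 h (710 UMIs), for a ratio of 151 with a counting interval of 41.7 to 1251. All 15 FAP markers had a UMI in neutrophil-like cells, with a summed level of 857 CPM at 2 h and 365 at 9 h, 1.31% of that in FAP-like cells at both times. Scaled by Dcn, an abundant FAP transcript, FAP RNA would bring 46.5 CPM of Cxcl1 and 101 of Cxcl5 at 9 h, which is above the Cxcl5 level that was measured. In the 3856 neutrophil-like cells without a Dcn UMI at 9 h, Cxcl1 was at 152 CPM and Cxcl5 at 82.0. In the 426 cells with a Dcn UMI they were at 158 and 116 CPM, so Cxcl1 was much the same and Cxcl5 somewhat lower without the marked cells.

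**Figure D3:**
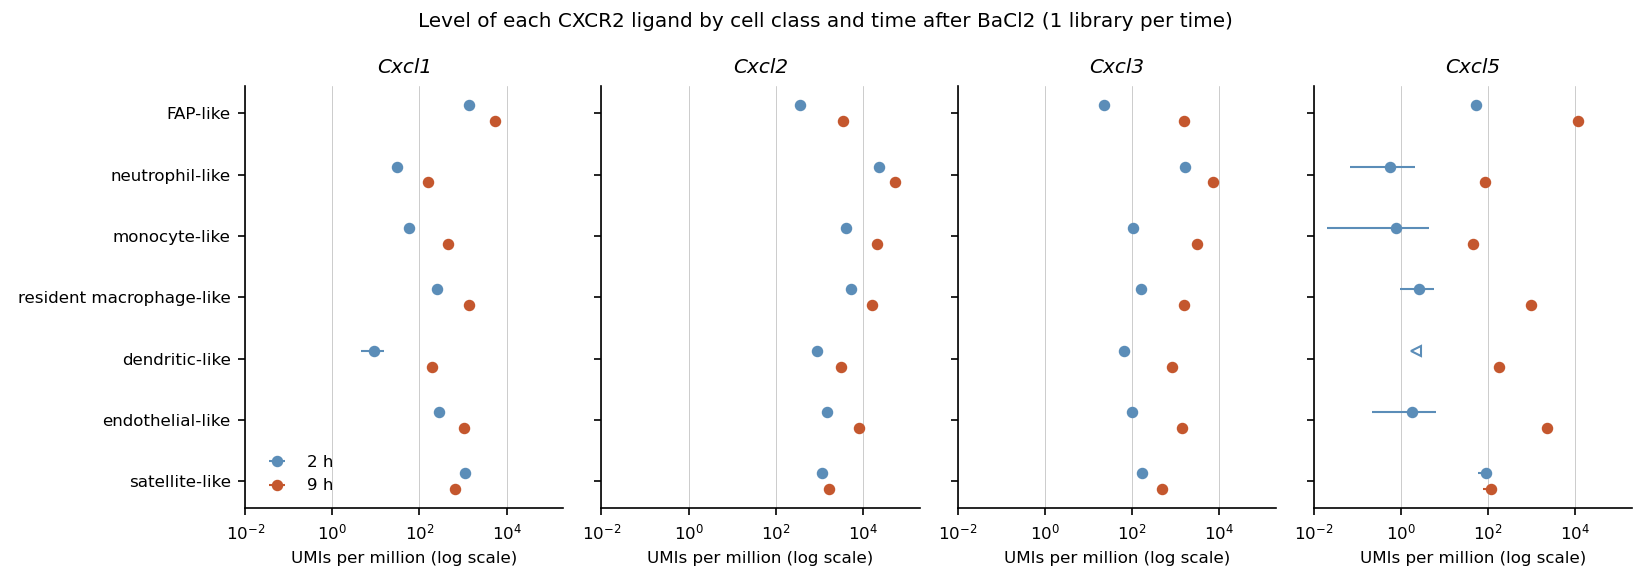
Level of each ligand (horizontal axis, CPM, log scale) in the classes with at least 50 cells at both times, at 2 h (blue) and 9 h (orange), 1 library per time, with bars for the 95% Poisson interval and an open triangle at the level of 3 UMIs where no UMI was found. The 9 h point is to the right of the 2 h point in every class for Cxcl2 and Cxcl3, and for Cxcl1 in every class but satellite-like cells.

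Monocyte-like cells and resident macrophage-like cells, like neutrophil-like cells, had Cxcl2 far above the other ligands. Cxcl2 also led in dendritic-like cells, with 92.4% of their ligand UMIs at 2 h and 72.8% at 9 h. Unlike neutrophil-like cells, resident macrophage-like cells had Cxcl1 above Cxcl3 at 2 h, at 255 against 165 CPM. In monocyte-like cells (169 and 358 cells), recruited blood phagocytes, Cxcl2 was at 4195 CPM at 2 h and 20750.1 at 9 h, for a ratio of 4.95 (4.81 to 5.09), and was the 2nd gene by level at 9 h. Cxcl3 was at 105 and 3110, for a ratio of 29.7 (25.1 to 35.5). That was the highest log2 ratio of the 3860 measured genes, of which 6.09% were at least 2-fold higher and 8.50% at least 2-fold lower. Cxcl1 was at 56.2 and 459, and Cxcl5 at 0.769 (1 UMI) and 44.3 (92 UMIs), too few UMIs to count as measured. In the monocyte-like cells without a UMI of Dcn, S100a8 or S100a9 (32 and 78 cells) Cxcl2 was at 4932 and 18382 CPM, Cxcl3 at 121 and 3135 and Cxcl1 at 137 and 525. The levels at 9 h were thus much the same with and without the marked cells. Those marked cells were 81.1% of the class at 2 h and 78.2% at 9 h. Whether their marker UMIs were carried or their own was not tested.

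In resident macrophage-like cells (321 and 238 cells), the phagocytes that sit in uninjured muscle, Cxcl2 was at 5469 CPM at 2 h and 16044 at 9 h, for a ratio of 2.93 (2.87 to 2.998). Cxcl3 was at 165 and 1553, for a ratio of 9.44 (8.46 to 10.6). Cxcl1 was at 255 and 1343, for a ratio of 5.26 (4.80 to 5.78), and Cxcl5 had 6 UMIs at 2 h and was at 954 CPM at 9 h. Of 4410 measured genes, 6.05% were at least 2-fold higher and 10.5% at least 2-fold lower, and Cxcl5 passed the minimum only through its 1443 UMIs at 9 h. Of those, 94.4% came from 10% of the cells. FAP markers summed to 5989 CPM at 2 h and 1312 at 9 h in this class, with all 15 present. Without the cells marked by Dcn, S100a8 or S100a9, Cxcl1 was at 66.3 CPM at 2 h (84 cells) and 839 at 9 h (66 cells), and Cxcl5 at 2.29 (1 UMI) and 296. Cxcl2 was at 4866 and 15561 CPM and Cxcl3 at 135 and 1509 in the same cells, near the levels of the whole class.

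Endothelial-like cells (285 and 581 cells) line the vessels that neutrophils cross, and their ligand UMIs lay in cells that also held markers of other classes. As a class they had Cxcl1 at 288 and 1057 CPM, Cxcl2 at 1477 and 8153, Cxcl3 at 99.8 and 1399, and Cxcl5 at 1.78 (2 UMIs) and 2237. Of 4371 measured genes, 9.43% were at least 2-fold higher and 10.3% at least 2-fold lower. Neutrophil markers summed to 4.001% of their neutrophil level at 2 h and 11.96% at 9 h, and FAP markers to 15.7% and 22.3% of their FAP level. In the cells with no UMI of Dcn, S100a8 or S100a9 (108 and 202 cells, median depths 2764 and 2038 UMIs), Cxcl1 was at 99.0 CPM at 2 h (67.7 to 140) and 108 at 9 h (80.4 to 141). Cxcl2 was at 266 (213 to 329) and 282 (236 to 333) in those cells, Cxcl3 at 0 and 31.1 (15 UMIs), and Cxcl5 at 0 and 55.9 (27 UMIs). Cells with such a UMI held Cxcl2 at 11021 CPM and Cxcl5 at 3031 at 9 h. The ratios of Cxcl1 and Cxcl2 were 1.09 and 1.06 without the marked cells, against 3.67 and 5.52 in the whole class.

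**Figure D4:**
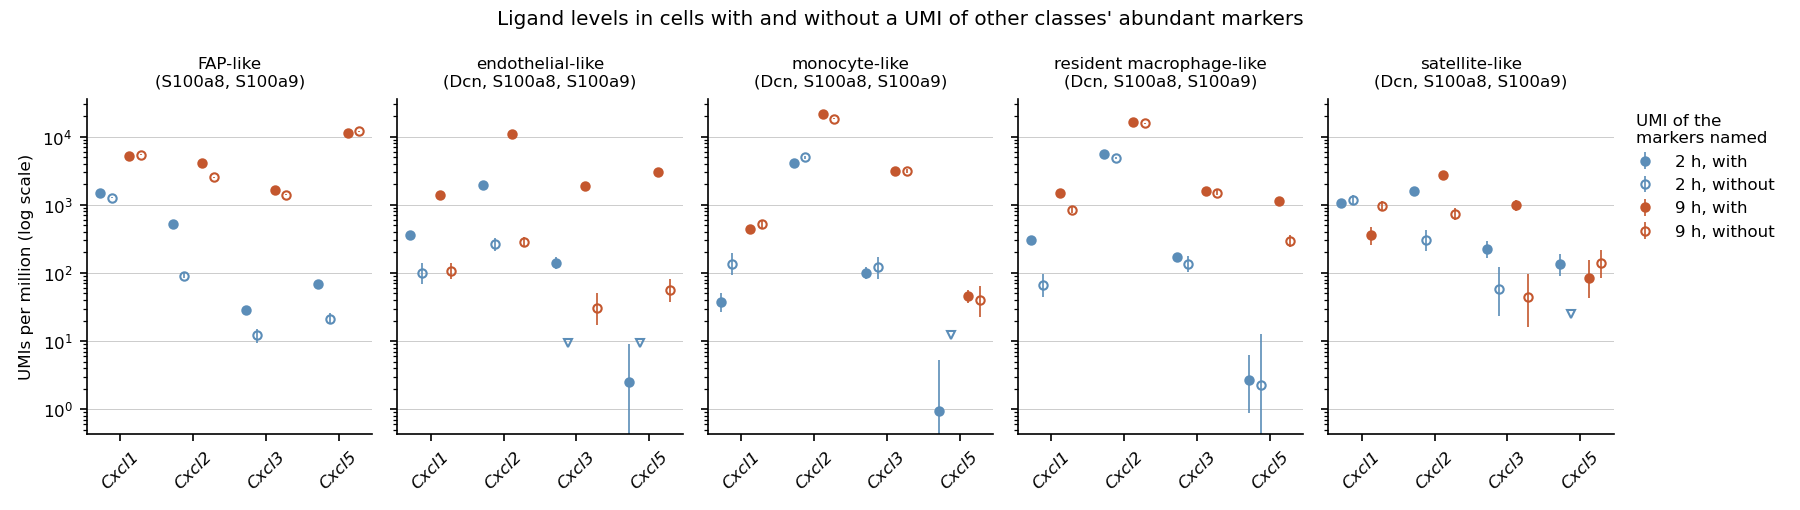
Ligand level (vertical axis, CPM, log scale) at 2 h (blue) and 9 h (orange) in cells with (filled) and without (open) a UMI of the markers named above each panel, with 95% Poisson intervals and triangles at the level of 3 UMIs where no UMI was found. Open and filled points lie close together for Cxcl2 in monocyte-like and resident macrophage-like cells, and far apart in endothelial-like cells, where Cxcl2 at 9 h is 11021 against 282.

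Satellite-like cells, the muscle stem cells, had the level of Cxcl1 nearest to that of FAP-like cells at 2 h. Cxcl1 was at 1098 CPM at 2 h (991 to 1213) in 81 cells and at 662 at 9 h (568 to 768) in 69 cells, for a ratio of 0.603 (0.502 to 0.723). This was the only class of at least 50 cells at both times in which a ligand was lower at 9 h, and the difference from FAP-like cells was not tested. Of the 806 genes measured in this class, 13.9% were at least 2-fold lower and 9.18% at least 2-fold higher, and Cxcl1 lay within 2-fold. In the cells without a UMI of Dcn, S100a8 or S100a9 (33 and 36 cells) Cxcl1 was at 1171 CPM (984 to 1382) and 955 (797 to 1135), for a ratio of 0.816, so the counting intervals overlapped there. Cxcl2 was at 1152 and 1692 CPM and Cxcl3 at 168 and 500 in the class, and at 303 and 726 and at 59.0 and 44.4 without the marked cells. Cxcl5 was at 88.2 and 114 CPM, with 30 of its 31 UMIs at 2 h in 1 cell. Scaled by Dcn, FAP RNA would bring 103 CPM of Cxcl1 at 2 h and 332 at 9 h to the class, and scaled by S100a8 neutrophil RNA would bring 560 and 1599 of Cxcl2.

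Dendritic-like cells (143 and 111 cells), which present antigen to T cells, had less of each ligand than monocyte-like cells, apart from Cxcl5 at 9 h. Cxcl2 was at 900 and 3189.8 CPM, Cxcl3 at 65.1 and 819, and Cxcl1 at 8.97 (12 UMIs) and 192. Cxcl5 had no UMI at 2 h and was at 181 CPM at 9 h. It passed the minimum of 100 UMIs only through its 163 UMIs at 9 h. With a floor of 3 UMIs put in at 2 h the ratio would be 80.9, and the exact counting interval of the ratio starts at 65.1. Of the 2899 measured genes, 7.00% were at least 2-fold higher and 7.35% at least 2-fold lower. Scaled by Dcn, FAP RNA would bring 424 CPM of Cxcl1 and 924 of Cxcl5 to these cells at 9 h, more than was measured, and scaled by S100a8 neutrophil RNA would bring 1877 of the 3189.8 of Cxcl2. Tenocyte-like cells had the lowest Cxcl2 of the classes with at least 50 cells at 2 h, 58.1 CPM in 91 cells. They had no Cxcl5 UMI at 2 h, with an interval up to 4.37 CPM. T or NK-like cells had 2657 CPM of Cxcl2 at 2 h in 102 cells. The 10% of those cells with the most held 85.9% of these UMIs.

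Thinned to 1000 UMIs each, 46.7% of FAP-like cells had a Cxcl1 UMI at 2 h (44.5 to 48.9%) and 66.9% at 9 h (64.9 to 68.8%). For Cxcl5 the shares were 1.93% and 52.7%, for Cxcl2 10.2% and 41.6%, and for Cxcl3 1.58% and 24.2%. The thinning left out 22 and 52 shallower FAP-like cells. Without thinning, the shares were 72.9% and 84.2% for Cxcl1, 3.57% and 64.9% for Cxcl5, 26.1% and 68.6% for Cxcl2, and 4.02% and 34.6% for Cxcl3. Neutrophil-like cells had a Cxcl1 UMI in 2.15% of thinned cells at 2 h and 8.31% at 9 h. They had a Cxcl5 UMI in 0 of 1538 cells at 2 h (interval up to 0.240%) and in 8.77% at 9 h. Their median depths were 2013 and 1657 UMIs, against 7958 and 8256 in FAP-like cells. Tenocyte-like cells (88 thinned at 2 h, median depth 8971) had a Cxcl2 UMI in 6.82% of cells (2.54 to 14.3%), and the interval of FAP-like cells at 2 h, 8.87 to 11.6%, lies within it. They had a Cxcl3 UMI in 2.27% (0.276 to 7.97%), above the 1.58% of FAP-like cells. The Cxcl2 and Cxcl3 shares of FAP-like cells at 2 h were therefore not separable from those of tenocyte-like cells at this depth. Tenocyte-like cells were not shown to be free of the ligands. By level at 2 h, Cxcl2 was at 366 CPM (357 to 376) in FAP-like cells and 58.1 (43.0 to 76.8) in tenocyte-like cells. Cxcl3 was at 22.7 CPM (20.4 to 25.2) and 40.3 (27.9 to 56.3).

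Nearly every neutrophil-like cell held Cxcl2. The thinned share was 98.2% at 2 h (interval 97.4 to 98.8%) and 99.9% at 9 h (99.8 to 100%), with 94 and 324 shallower cells left out. Cxcl3 was in 36.0% of cells at 2 h (interval 33.6 to 38.5%) and 80.6% at 9 h (79.4 to 81.8%), and in 43.1% and 83.5% without thinning. In monocyte-like cells the thinned Cxcl3 share was 7.14% and 51.4%, and in resident macrophage-like cells 8.60% and 34.6%. The Cxcl2 share was 65.5% and 91.0% in monocyte-like cells and 68.2% and 81.0% in resident macrophage-like cells.

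The FAP-like cells of the libraries fell into different clusters, and the ligands differed between them. At 2 h, cluster 1 (1363 cells) had Cxcl1 at 1645 CPM and cluster 0 (592 cells), led by Pi16 and Dpp4 among others, had it at 837. Pi16 and Dpp4 are known marks of adventitial fibroblasts. Cxcl5 was at 65.7 CPM in cluster 1 and 10.0 in cluster 0. At 9 h, cluster 4 (1466 cells), led by Cxcl5, Ccl2, Il1rl1, Hmga2 and Cxcl1, had Cxcl5 at 17213, Cxcl1 at 7462, Cxcl2 at 4858 and Cxcl3 at 2281 CPM. It held 90.7% of all Cxcl5 UMIs and 83.1% of all Cxcl1 UMIs at 9 h. Cluster 17 (557 cells), led by Saa1 and Saa2, and cluster 19 (293 cells), led by Krtdap and Dmkn, had Cxcl5 at 2001 and 1703 CPM and Cxcl1 at 1526 and 1674. Cxcl1 and Cxcl5 are among the leading genes of cluster 4, so these values describe the clusters and test nothing, although the ligands were not among the genes used for clustering.

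FAP-like cells were uneven in what they held. The 10% of FAP-like cells with the most Cxcl5 held 51.9% of its UMIs at 9 h, and the 10% with the most Cxcl3 held 81.4% of that gene's UMIs. For Cxcl1 the figure was 50.9%, and for Cxcl2 68.5%. Single FAP-like cells reached 998 UMIs of Cxcl5, 1062 of Cxcl2 and 590 of Cxcl1.

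Cluster 8 was the neutrophil-like cluster with many cells at both times (1546 and 386 cells). There Cxcl2 was at 22898 and 35093 CPM and Cxcl3 at 1620 and 3425. The clusters nearly confined to 9 h had more of both. Cluster 14 (1185 cells), led by Ccrl2, Cstdc4 and Ccl4, had Cxcl2 at 60929 and Cxcl3 at 8488 CPM, and cluster 13 (1549 cells) had 59459 and 6887. Cluster 15 (1158 cells), led by Retnlg, Cstdc4 and Wfdc21, had 47557 and 7317.

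In FAP-like cells at 9 h the ligands were found in the same cells more often than the product of their separate shares. In cells thinned to 1000 UMIs, Cxcl5 was present in 67.6% of the 1539 cells with Cxcl1 (65.2 to 69.9%) and in 22.8% of the 763 without (19.9 to 26.0%). Cxcl3 was present in 41.0% of the cells with Cxcl2 and in 12.2% of those without. Scaled by S100a8, neutrophil RNA would bring 1007 of the 3513 CPM of Cxcl2 and 134 of the 1566 of Cxcl3 in FAP-like cells. Carried RNA and the 61 words of 50 bases shared by these transcripts could both add to the joint presence of this pair, which was not tested. Cxcl2 was present in 51.6% of the cells with Cxcl1 and in 21.4% of those without. All 4 ligands were in 12.03% of the cells (277 of 2302), where the product of the 4 separate shares is 3.54%. At 2 h, all 4 were in 3 of 1966 cells (0.153%). The share of FAP-like cells with none of the 4 was 49.0% at 2 h and 20.3% at 9 h.

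In cluster 4 the joint presence was nearer to the product of the separate shares than over all FAP-like cells. The share with both, over that product, cannot exceed the inverse of the larger share, so common ligands hold it low. Cxcl1 was in 82.1% of cluster 4 cells and Cxcl5 in 72.0%, which leaves this pair little room. Cxcl2 was in 53.3% and Cxcl3 in 32.6%, which leaves that pair more. Cxcl5 was present in 77.7% of the cluster 4 cells with Cxcl1 and in 45.7% of those without, against 67.6% and 22.8% over all FAP-like cells. Cxcl3 was in 43.1% of the cluster 4 cells with Cxcl2 and in 20.6% of those without, against 41.0% and 12.2%. For both pairs these shares lay closer together in cluster 4, and the cause was not tested. Within cluster 4 the share with both members of a pair, over the product of their separate shares, was between 1.06 for Cxcl1 with Cxcl3 and 1.32 for Cxcl2 with Cxcl3, against 1.24 to 1.70 over all FAP-like cells at 9 h. In cluster 17 the same measure was between 1.31 for Cxcl1 with Cxcl2 and 3.88 for Cxcl2 with Cxcl3, and in cluster 19 between 1.49 and 2.39 for the same pairs. All 4 ligands were in 17.9% of cluster 4 cells, where the product is 10.3%. None was found in 5.93% of cluster 4 cells, 45.3% of cluster 17 cells and 40.4% of cluster 19 cells.

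**Figure D5:**
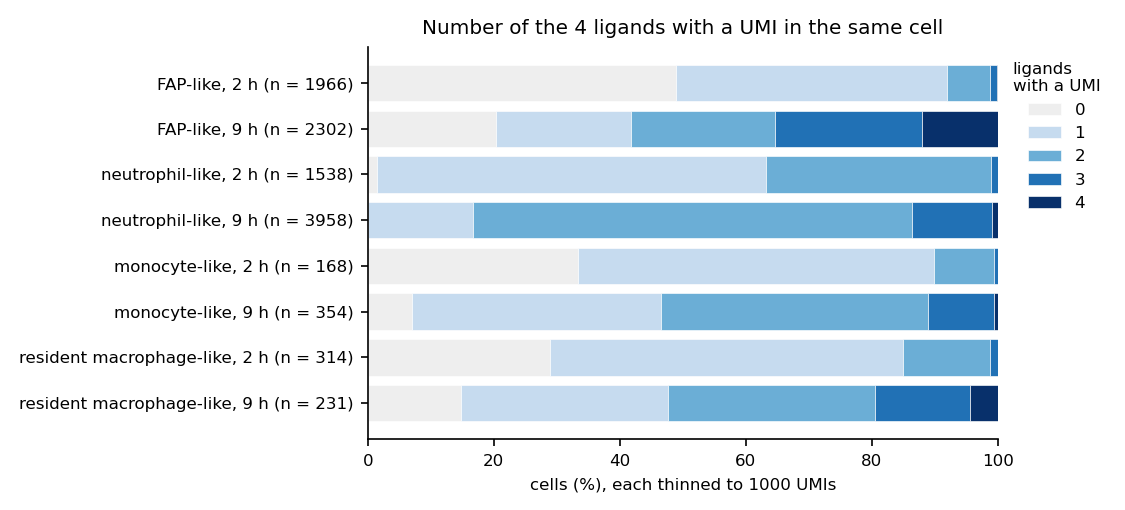
Share of cells (horizontal axis, %, each cell thinned to 1000 UMIs) with a UMI of 0, 1, 2, 3 or 4 of the ligands, in 4 classes at 2 h and 9 h. FAP-like cells with all 4 go from 0.153% to 12.03%, and most neutrophil-like cells at 9 h hold 2 ligands (69.8%).

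In neutrophil-like cells Cxcl2 was in nearly every cell, so its pairs equal the product of their shares. For Cxcl1 with Cxcl5 at 9 h the share with both was 1.42 times the product, with 41 such cells. The typical number of ligands per cell was 1 at 2 h (61.8% of cells) and 2 at 9 h (69.8% of cells). In monocyte-like cells at 9 h, Cxcl3 was in 82.5% of the 40 cells with Cxcl1 (67.2 to 92.7%) and in 47.5% of the 314 without (41.8 to 53.1%). In resident macrophage-like cells at 9 h, Cxcl5 was in 26.1% of the 69 cells with Cxcl1 (16.3 to 38.1%) and in 11.7% of the 162 without (7.21 to 17.7%), and those intervals overlap.

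Across 16 profiles, each a class at a time with at least 50 cells, the log2(CPM + 10) level of Cxcl1 went with that of Cxcl5 (Pearson r = 0.781) and that of Cxcl2 with Cxcl3 (r = 0.840). Cxcl1 and Cxcl2 did not go together (r = -0.03). The profiles share libraries, depth and carried RNA, so these are descriptions. Among 3869 genes at 100 CPM or more in a profile, the genes most like Cxcl1 were Pdpn (r = 0.864), Plau, Agfg1, Nifk and Zfp451. Those most like Cxcl2 were Ccl3 (r = 0.955), a chemokine of activated phagocytes, the inflammasome sensor Nlrp3, the complement receptor C5ar1, the interleukin-1 receptor antagonist Il1rn, and Tmem189. Those most like Cxcl3 were Tuba1c (r = 0.867), Gng5, Cxcl2, Olr1 and Cstdc4. Those most like Cxcl5 were Eif4a1 (r = 0.805), Il33, Cxcl1, Srm and Sod2.

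Cxcr2, the receptor through which the ligands act on neutrophils, differed little between the times. Cxcr2 in neutrophil-like cells was at 708 CPM at 2 h and 746 at 9 h, and these cells held 89.6% and 90.3% of its UMIs. Cxcr1, the second receptor of the list, was at 22.2 and 18.2 CPM there. Ackr1, a decoy receptor that binds these chemokines without signalling, was in FAP-like cells at 101 and 52.7 CPM, and those cells held 94.9% and 95.1% of its UMIs. Of the list of 3 receptors, 2 were measured in FAP-like cells and 2 in neutrophil-like cells, and none passed 2-fold in either class. Among the other listed chemokines with the Glu-Leu-Arg motif, Ppbp was in resident macrophage-like cells at 33.9 and 1756 CPM, for a ratio of 51.8. Cxcl15 had at most 25 UMIs in FAP-like or neutrophil-like cells at either time.

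The pathway lists are counted by genes at least 2-fold higher or lower at 9 h among those measured. Shares of all measured genes beside these counts are without TMM scaling. With it, the higher part of all genes 2-fold apart went from 48.1% to 59.6% in neutrophil-like cells. In FAP-like cells it went from 43.5% to 51.3%. Counts after TMM scaling are therefore not to be read against those shares. Of the 9 inducing cytokines and their antagonist, 7 were measured in neutrophil-like cells and 4 of these were at least 2-fold higher at 9 h, none lower, where 9.36% of all measured genes were higher and 10.1% lower. Il1b, a main inducer of the ligands, was at 8424 and 9766 CPM there, Il1a at 21.1 and 211, Tnf at 154 and 497, and Il1rn at 948 and 3368. The list's median log2 ratio was 1.14 in neutrophil-like cells, against -0.07 over all measured genes. In FAP-like cells 6 were measured and 5 were higher (6 after TMM scaling), where 15.8% of all measured genes were higher, with a median of 0.96 against 0.00. The neutrophil markers in this class went from 1.02% to 1.92% of their neutrophil level, and for Il1b, at 93.3 CPM at 2 h and 196 at 9 h, the S100a8 scaling puts carried neutrophil RNA at 78.7 and 178. For Il1rn it would bring 8.85 of 12.8 and 61.3 of 69.4 CPM, for Il36g 18.4 of 18.7 at 9 h, and for Tnf 9.04 of 10.2 at 9 h. Il33, an alarmin that stromal cells store in the nucleus, was at 257 and 1994 CPM, of which neutrophil RNA would bring under 1 CPM.

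Of the 16 receptors and adaptors of those inducers, 16 were measured in FAP-like cells, 2 of them higher and 1 lower. The higher share was near the 15.8% of all measured genes, and the lower share was below their 20.5%. Il1r1, through which interleukin-1 acts, was at 367 and 339 CPM in FAP-like cells, while Il1rl1, which binds interleukin-33, had 5.63 and 522 CPM, for a ratio of 92.7. In neutrophil-like cells 13 were measured, 2 higher (4 after TMM scaling) and none lower, against 9.36% and 10.1% of all measured genes, and the decoy receptor Il1r2 was at 5459 and 2982 CPM.

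Of 16 NF-kB subunits, inhibitors and partners, 5 were higher and none lower in neutrophil-like cells, against 9.36% and 10.1% of all measured genes. After TMM scaling 7 were higher, and no share of all genes is set beside that count. The list's median log2 ratio was 0.66, and that of all measured genes -0.07. Nfkbia, the inhibitor that NF-kB itself induces, was at 1514 and 5135 CPM, Tnfaip3 at 200 and 690, Nfkb1 at 113 and 350 and Tnip1 at 16.0 and 81.7. In FAP-like cells 3 of the 16 were higher and 1 lower (4 and 0 after TMM scaling), with a median of 0.13 against 0.00. Without that scaling, the higher share was near the 15.8% of all measured genes and the lower share below their 20.5%. Nfkbia was at 503 and 923 CPM in FAP-like cells, for a ratio of 1.84, and Cebpd at 1457 and 1156.

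Of 8 regulators of mRNA decay, 1 was higher (2 after TMM scaling) and 3 were lower in FAP-like cells, against 15.8% and 20.5% of all measured genes, with a median of -0.01 against 0.00. The lower ones were Zfp36, at 1003 and 336 CPM, its relative Zfp36l1, at 1469 and 488, and Arid5a, which protects some transcripts from decay, at 77.5 and 19.95. In neutrophil-like cells none of the 8 was lower and 1 was higher, against 10.1% and 9.36%, with a median of -0.13 against -0.07. Zfp36 was at 2868 and 2426 CPM there and Zc3h12a, the endonuclease regnase-1, at 77.8 and 272. Of the 7 endothelial adhesion and presentation genes, 3 were measured in endothelial-like cells, 1 higher and 1 lower, where 9.43% and 10.3% of all measured genes were. The lower was Selp, the P-selectin that slows neutrophils on the vessel wall, at 164 and 43.7 CPM.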

How the data were processed

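The samples were 1 library at 2 h and 1 at 9 h, each with its own matrix of UMI counts per gene and cell, as the authors deposited them. The submitters' processing notes name Cell Ranger 5.0.0 and mm10. Aligner settings and the annotation release are not given in the sources used here. Together the deposited counts held 5729 and 8790 barcodes. Cells with under 200 genes or 500 UMIs (513 and 264) or over 20% mitochondrial UMIs (316 and 379) were left out. With Scanpy 1.11.5 (Python 3.11.15) counts were scaled to 10000 per cell and logged, 2000 variable genes without the 4 ligands gave 30 principal components, and a graph of 15 neighbours was cut by the Leiden method (leidenalg 0.10.2) at resolution 1. Clusters were named from marker lists. The score used for naming was set after the clusters had been seen. Scrublet marked 6 cells (0.122%) and 0 cells, under 0.5%, so its calls were set aside, and doublets were treated only as an alternative.

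UMIs were summed per class and library. Intervals are exact Poisson (levels), Clopper-Pearson (shares) and conditional binomial (ratios) at 95% (scipy 1.17.1). A gene was measured in a class with at least 100 UMIs over both libraries, and log2 ratios had 10 CPM added to each level. Carried RNA was estimated from S100a8 for neutrophils and Dcn for FAPs: the level of that gene in the class over its level in the source class, times the ligand's level there. Joint presence and shares of cells used cells thinned to 1000 UMIs. TMM factors came from edgeR 4.0.16 (R 4.3.3), which was used for scaling only. Alternatives were clustering resolutions of 0.5 and 2, clustering with the ligands, a 10% mitochondrial limit, leaving out the highest doublet scores, subtracting carried RNA, the mean over cells, TMM, thinning to 2000 UMIs, and no minimum count. The scripts were tested on simulated data.

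Named genes were the 4 ligands, members of the pathway lists with the highest level or ratio, and the 5 genes most like each ligand. The ligands and the lists were chosen with earlier results of these data known. Il36g is listed as Il1f9 and was matched through RefSeq synonyms.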

Additional observations from a re-analysis of the deposited data

Results flagged for a closer look

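Cxcl1 differed in direction between classes. Its ratio of 9 h over 2 h was 0.603 (0.502 to 0.723) in satellite-like cells (81 and 69 cells) and 3.82 (3.76 to 3.87) in FAP-like cells, and the difference was not tested, since each time has 1 library. Over the alternatives the ratio in satellite-like cells lay between 0.328 and 0.816, always below 1. The alternatives all draw on the same libraries. At 0.816, in cells without a UMI of Dcn, S100a8 or S100a9 (33 and 36 cells), the counting intervals of the levels overlapped. They were 984 to 1382 CPM at 2 h and 797 to 1135 at 9 h.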

How the results depend on the processing

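No paired analysis was possible because each time has 1 library, so the groups share a single replicate number. The shares of UMIs at 9 h are given in the order Cxcl1 and Cxcl5 in FAP-like cells, then Cxcl2 and Cxcl3 in neutrophil-like cells. They were 95.3%, 98.4%, 74.8% and 58.8% at resolution 0.5, and 88.9%, 92.3%, 61.7% and 49.9% at resolution 2, where 518 cells at 9 h fell in an unnamed cluster. They were 94.3%, 97.5%, 57.3% and 49.3% when the ligands were used in clustering, which left 693 cells at 9 h unnamed. A 10% mitochondrial limit gave 94.4%, 97.2%, 74.3% and 58.1%, leaving out the highest doublet scores 95.7%, 99.0%, 79.1% and 61.6%, and subtracting carried RNA 96.4%, 99.3%, 80.5% and 62.5%. The Cxcl2 ratio in neutrophil-like cells was 2.36 at resolution 2 and 2.34 with the ligands in clustering, where that of Cxcl3 was 4.80. The Cxcl1 ratio in FAP-like cells was 3.93 without the highest doublet scores. TMM gave 4.20 for Cxcl1 and 248 for Cxcl5 in FAP-like cells, and 2.62 for Cxcl2 and 4.92 for Cxcl3 in neutrophil-like cells. Alternatives chosen after seeing the data gave 4.27 for Cxcl1 and 555 for Cxcl5 in FAP-like cells without S100a8 or S100a9, and 2.35 for Cxcl2 in neutrophil-like cells without Dcn.

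Without the minimum of 100 UMIs, 3773 genes were at least 2-fold higher and 5947 lower in FAP-like cells, against 1654 and 2147, and 4038 and 3251 in neutrophil-like cells, against 461 and 498, since many genes with few UMIs then entered. Of 144 alternative values of the other 23 ligand ratios, 142 kept their direction and 39 moved over 1.5 times. The reversed ones were in satellite-like cells: Cxcl5 at 0.836 with the 10% mitochondrial limit, and Cxcl3 at 0.753 without cells holding Dcn, S100a8 or S100a9, chosen after seeing the data. The cause was not tested. In FAP-like cells the Cxcl2 and Cxcl3 ratios were 18.1 and 112 without the highest doublet scores and 16.8 and 197 with carried RNA subtracted. Depth limits the ratios of Cxcl5 outside FAP-like cells, where the 2 h library held at most 31 UMIs in a class.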
